A study of Mus musculus with 3 samples.

Results

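The 42 genes described here encode integrins and the proteins that tie them to the actin cytoskeleton at focal adhesions. They were taken by gene symbol from a table of 47069 genes, in which each of the 42 had 1 row, and they comprise 12 integrin α chains, 6 integrin β chains and 24 adhesion proteins of the cytoplasm. Their transcripts were measured by bulk RNA-seq in the mouse AGM (aorta-gonad-mesonephros region), where the dorsal aorta gives rise to the first blood stem cells. The strain was C57BL/6J and the age embryonic day 11 (E11). The embryos of 1 litter were pooled, so every library comes from the same pool of wild-type embryos. After cells carrying CD31, CD45 or cKit had been excluded, 3 populations were sorted by NG2, the proteoglycan encoded by Cspg4, and by the receptor PDGFRβ. Cells with both NG2 and PDGFRβ, named double-positive (DP), are called vascular smooth muscle cells in the labels. Cells with PDGFRβ but no NG2, named PDGFRβ-single (PDGFRβ-S), are called sub-vSMCs. Double-negative (DN) cells are called stroma, and the text of the study describes their PDGFRβ as low or absent where the labels give it as negative. Each population gave 1 library, so no p-value can be given, and every difference below describes these libraries only.

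Integrins are receptors made of 1 α and 1 β chain that span the membrane and hold the cell to its extracellular matrix. The chain pair sets the ligand: chains that join β1 bind collagens, laminins or fibronectin, and several αv pairs bind vitronectin or latent TGF-β. Inside the cell, talins and kindlins bind the β tail and switch the receptor on, vinculin strengthens the link from talin to actin, and the complex of ILK, a PINCH protein and a parvin adds a further link. FAK, paxillin and p130Cas carry signals from the site, and zyxin, VASP, α-actinins and LIM domain proteins work on the actin bundles that end there. In smooth muscle such sites pass the force of the contractile filaments to the matrix.

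The values are TPM, shares of reads corrected for gene length on a total of 1000000 per library. The libraries held about 10800000 to 13093000 reads on genes, recovered from the steps between values, so a gene with 5 kb of counted exons reaches 0.122 to 0.155 TPM with 3 reads. Pdgfrb was measured at 35.1 TPM in DP, 14.3 TPM in PDGFRβ-S and 7.32 TPM in DN, while Cspg4 gave 10.5 TPM in DP, 0.485 TPM in PDGFRβ-S and 1.31 TPM in DN. A sum over 5 smooth muscle markers (Acta2, Tagln, Cnn1, Myh11, Smtn) was 7510 TPM in DP, 201.5 TPM in PDGFRβ-S and 99.7 TPM in DN, and all 5 were at least 2-fold higher in DP than in each other library. In DN the 6 skeletal muscle markers summed to 97.4 TPM and the 7 sympathetic and neural crest markers to 157 TPM, against 5.36 and 17.9 TPM in DP and 4.20 and 20.8 TPM in PDGFRβ-S. The 6 epithelial markers summed to 249.9 TPM in DP, 15.7 TPM in PDGFRβ-S and 38.4 TPM in DN, of which Krt8 and Krt18 made up 149.6 and 87.3 TPM in DP. Epcam was at 6.34 TPM in DP, 3.83 TPM in PDGFRβ-S and 9.06 TPM in DN. Cldn6 was at 4.12 TPM in DP and 6.20 TPM in DN, and Pax8 at 2.45 and 0.375 TPM, with both at 0 in PDGFRβ-S. Cdh1 was at 0 in DP and PDGFRβ-S. The 7 endothelial markers summed to 12.4 TPM in DP, 4.41 TPM in PDGFRβ-S and 3.12 TPM in DN. They were led in DP by Esam at 6.60 and Tek at 2.36 TPM, with Cdh5 and Tie1 at 0 in every library. Emcn was at 1.74 TPM in DP, 2.09 TPM in PDGFRβ-S and 0.715 TPM in DN, and Kdr at 1.58, 1.53 and 1.16 TPM. Leukocyte and platelet markers summed to 6.73 to 9.89 TPM, with Ptprc, Spi1 and Adgre1 at 0. The others had reads in every library. Cd34 was at 4.02 TPM in DP, 1.04 TPM in PDGFRβ-S and 5.18 TPM in DN, and Csf1r at 1.81, 2.44 and 2.74 TPM. In the same order Pf4 was at 2.66, 0.958 and 1.49 TPM, Gp1bb at 0.933, 2.00 and 0.407 TPM, and Itga2b at 0.159, 0.294 and 0.0750 TPM. Erythroid transcripts reached 864.8 TPM in DP, 14212 TPM in PDGFRβ-S and 14376 TPM in DN, and mitochondrial genes took 10.5% of all TPM in DP, against 25.5% in PDGFRβ-S and 24.4% in DN. In bulk libraries, fewer cells of a type and less RNA per cell cannot be told apart.

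Most adhesion genes were highest in DP cells. Of the 42, 32 had their highest TPM in DP, against 3 in PDGFRβ-S and 7 in DN. The 32 include Itga6, Itga2 and Itga10, whose highest libraries were not apart beyond counting error. Of the 29 members at 5 TPM or more in some library, 24 were highest in DP (82.8%), against 45.1% of all genes and 50.7% of nuclear protein-coding genes at that level. Higher and lower were counted where libraries were 2-fold apart or more on the scale log2((TPM + 1)/(TPM + 1)), which understates the change of low genes, for genes at 5 TPM or more in the higher library. By this rule 21 of the 29 members that could be counted were higher in DP than in DN (72.4%), against 16.9% of all genes and 18.2% of nuclear protein-coding genes. Only Tln2 was lower in DP than in DN (1 of 29), against 19.1% of all genes and 13% of protein-coding genes. Between DP and PDGFRβ-S, 22 of 29 were higher in DP (75.9%), against 28.3% of all genes and 31% of protein-coding genes, and none was lower, against 12.5% and 6.12%. With TPM rescaled to protein-coding genes, the counts were 20 higher and 1 lower in DP than in DN, against 11.7% and 27.0% of all genes, and 19 higher and 2 lower in DP than in PDGFRβ-S, against 19.1% and 21.3%. The DP library is shared by both comparisons, so they are not independent. In both, 20 of the members were higher in DP, and the share of all genes higher in both was not counted. The 13 members not among the 29 stayed under 5 TPM everywhere.

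PDGFRβ-S and DN cells differed little in these genes, and about as little over all genes. None of 23 countable members was higher in PDGFRβ-S than in DN, against 2.23% of all genes and 0.77% of protein-coding genes. Itga4, Itga6 and Actn4 were lower in PDGFRβ-S (3 of 23, 13.0%), close to the 10.9% of all genes and 9.08% of protein-coding genes that were. The median log2 ratio of the 36 members with a mean of 1 TPM or more was 1.31 for DP over DN, −0.19 for PDGFRβ-S over DN and 1.43 for DP over PDGFRβ-S. Over all 15890 genes at that level it was −0.13, −0.30 and 0.13.

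**Figure D1:**
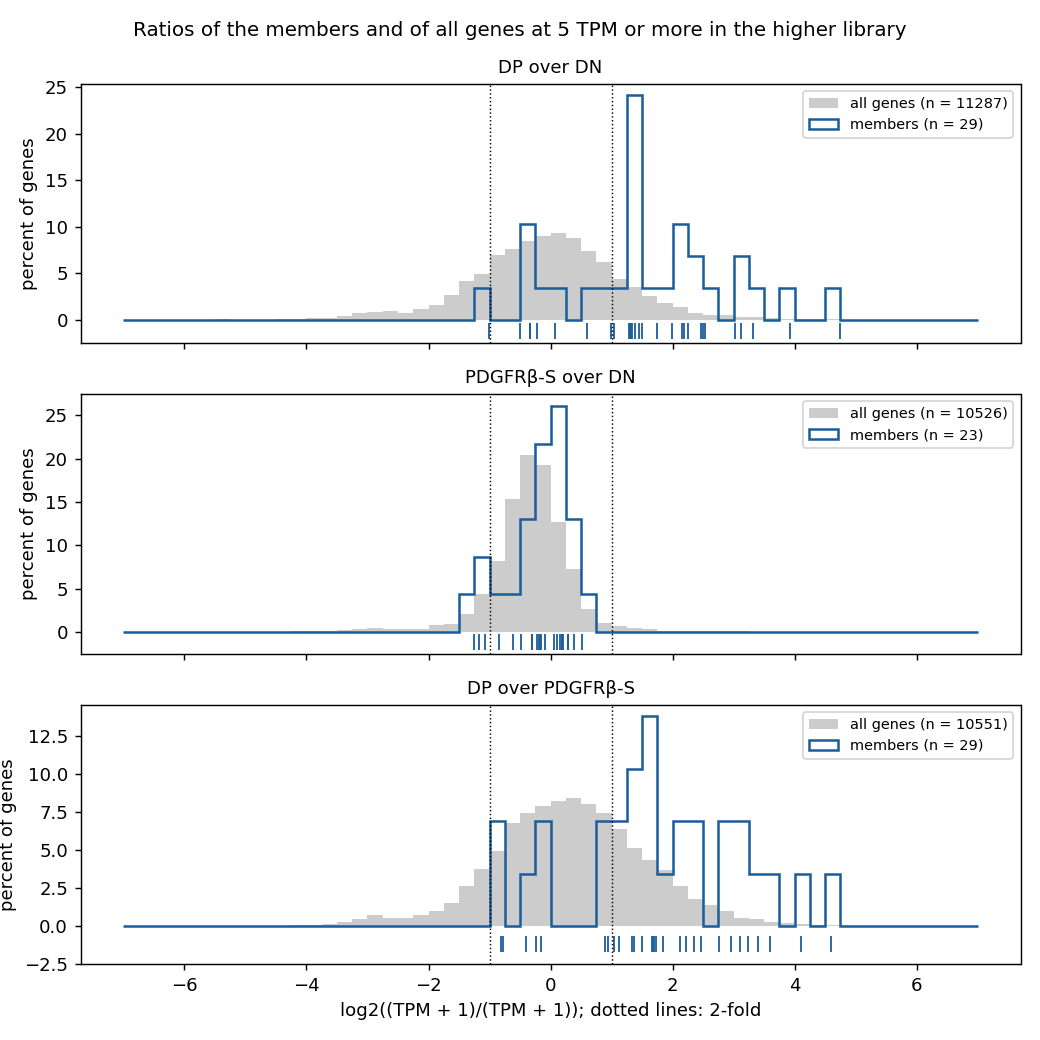
Histograms of the log2 ratio between each pair of libraries, as a percent of genes, for all genes (grey) and for the members (blue outline, with a tick for each member), at 5 TPM or more in the higher library. In both comparisons with DP most members lie right of the dotted 2-fold line (21 and 22 of 29), while for PDGFRβ-S over DN 20 of 23 lie between the lines.

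Several integrin α chains were far apart between the libraries. Itga1 (chr13:114958079-115101964 on mm10, minus strand), the α chain of a collagen and laminin receptor, was measured at 53.5 TPM in DP, 2.17 TPM in PDGFRβ-S and 2.58 TPM in DN. It was 20.7-fold higher in DP than in DN (95% interval 18.3 to 23.6) and 24.6-fold higher than in PDGFRβ-S (21.4 to 28.4). These and all later intervals cover the counting of reads only, and not variation between embryos or sorts. The low libraries did not differ beyond counting error, at 0.843-fold for PDGFRβ-S over DN (0.70 to 1.01).

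Itga5, the α chain of the main fibronectin receptor, followed the same order at 45.4 TPM in DP, 3.91 TPM in PDGFRβ-S and 4.68 TPM in DN. It was 9.69-fold higher in DP than in DN (7.87 to 12.0) and 11.6-fold higher than in PDGFRβ-S (9.19 to 14.8). Itga4, which binds fibronectin and VCAM1, had 18.1 TPM in DP, 2.47 TPM in PDGFRβ-S and 6.80 TPM in DN. All 3 libraries were apart in this gene: DP was 2.66-fold over DN (2.40 to 2.96), and PDGFRβ-S was 0.364-fold of DN (0.305 to 0.432). Of its exon bases, 8.04% overlap those of Cerkl on the other strand, which was at 4.40 TPM in DP, 1.01 TPM in PDGFRβ-S and 4.08 TPM in DN, and the libraries carry no strand. The study shows Itga1 on these libraries, and Itga1, Itga4, Itga11 and Itgb1 on its single cells, so the directions of these genes are not independent evidence.

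Itga6, a laminin receptor chain, did not follow DP. It had 12.9 TPM in DP and 12.2 TPM in DN, which did not differ beyond counting error (1.06-fold, 0.948 to 1.18), and 4.51 TPM in PDGFRβ-S, 0.371-fold of DN (0.320 to 0.428). Itga9, whose receptor binds tenascin and VCAM1, had 11.1 TPM in DP, 5.30 TPM in PDGFRβ-S and 4.87 TPM in DN. Its ratios lay at the limit, 2.28-fold for DP over DN (1.92 to 2.72) and 2.1-fold for DP over PDGFRβ-S (1.76 to 2.50), and only the first was counted. Rescaling the libraries to protein-coding genes brought that one under 2-fold as well.

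Itgav and Itga8, whose receptors bind ligands with an RGD motif, were highest in PDGFRβ-S. Itgav had 6.16 TPM in DP, 11.3 TPM in PDGFRβ-S and 9.11 TPM in DN, 0.677-fold in DP relative to DN (0.590 to 0.775). Itga8 had 6.57 TPM in DP, 8.98 TPM in PDGFRβ-S and 7.79 TPM in DN, and no pair of libraries was apart by 2-fold for either gene. The other 5 α chains stayed under 5 TPM. Itga7, a laminin receptor chain of muscle, reached 2.06 TPM in DP against 0.216 TPM in PDGFRβ-S and 0.253 TPM in DN, a difference of 8.15-fold between DP and DN (4.70 to 15.1) that rests on 96 reads in DP and 15 in DN. Itga3 had 2.68 TPM in DP, 0.578 TPM in PDGFRβ-S and 1.32 TPM in DN. Itga11, a collagen receptor chain, was highest in DN at 3.86 TPM, with 2.31 TPM in DP and 1.29 TPM in PDGFRβ-S. Itga2 and Itga10 lay between 0.141 and 0.540 TPM, and 33.5% of the exon bases of Itga10 overlap those of Gm42957.

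Shares of the α chains within a library are the same under any linear scaling of the libraries. The 12 α chains summed to 161.8 TPM in DP, 41.6 TPM in PDGFRβ-S and 53.7 TPM in DN. In DP, Itga1 took 33.1% of that sum, Itga5 28.1% and Itga4 11.2%. In PDGFRβ-S the leading chains were Itgav with 27.1%, Itga8 with 21.6% and Itga9 with 12.8%, and in DN they were Itga6 with 22.7%, Itgav with 17.0% and Itga8 with 14.5%. Each library therefore had another leading α chain. Itga1 took 5.23% in PDGFRβ-S and 4.80% in DN, and Itgav took 3.81% in DP. The deposited values divide by a length in which overlapping exons of different transcripts are counted repeatedly, and dividing by the union of exons instead left the leading chain of each library in place, with Itga1 at 34.0% in DP, Itgav at 28.7% in PDGFRβ-S and Itga6 at 25.6% in DN.

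**Figure D2:**
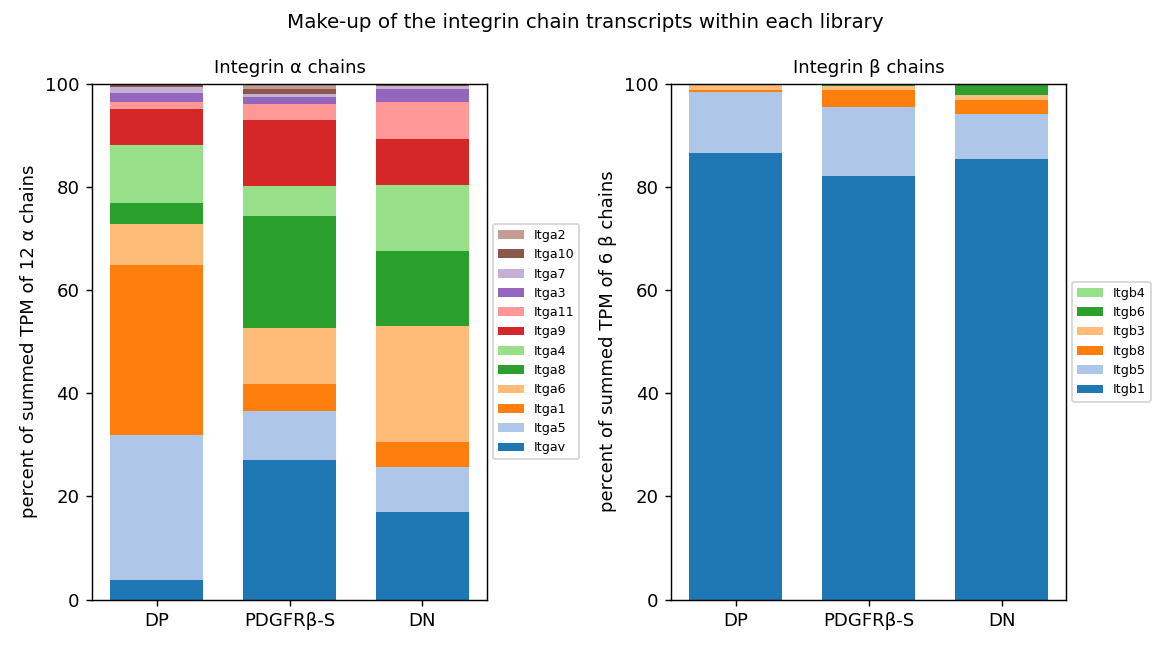
Stacked bars of the share of each chain in the summed TPM of the 12 α chains (left) and the 6 β chains (right), in percent, for the DP, PDGFRβ-S and DN libraries. Itga1 and Itga5 fill 33.1% and 28.1% of the DP bar, while Itgb1 fills 82.2% to 86.5% of every β bar.

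Itgb1, the β chain shared by most of these α chains, was by far the most abundant integrin in every library. It had 216 TPM in DP, 67.0 TPM in PDGFRβ-S and 78.3 TPM in DN, 2.75-fold higher in DP than in DN (2.62 to 2.90). It made up 86.5% of the β chain TPM in DP, against 82.2% in PDGFRβ-S and 85.3% in DN, so its share moved far less than its level. The sums of the 6 β chains were 249 TPM in DP, 81.5 TPM in PDGFRβ-S and 91.8 TPM in DN.

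Itgb5, which pairs with αv, had 29.4 TPM in DP, 10.8 TPM in PDGFRβ-S and 8.07 TPM in DN, 3.65-fold higher in DP than in DN (3.07 to 4.34). It was thus higher in DP while its partner Itgav was not. Itgb8 and Itgb6, whose αv pairs bind latent TGF-β, were lower in DP than in DN, both under the level that was counted. Itgb8 had 1.01 TPM in DP, 2.69 TPM in PDGFRβ-S and 2.44 TPM in DN. Itgb6, known from epithelia, had 0.202 TPM in DP (7 reads), 0.363 TPM in PDGFRβ-S (15 reads) and 1.97 TPM in DN (87 reads). Itgb3 was highest in DP, with 2.63 TPM, against 0.678 TPM in PDGFRβ-S and 0.917 TPM in DN. Itgb4, the partner of α6 in hemidesmosomes, was the only member at 0 in a library: no read was found in PDGFRβ-S, where 3 reads would be 0.0698 TPM, against 0.305 TPM in DP and 0.0871 TPM in DN. The 8 leukocyte and platelet chains that are not members (Itgb2, Itgb7, Itgal, Itgam, Itgax, Itgad, Itgae, Itga2b) summed to 0.319 TPM in DP, 1.00 TPM in PDGFRβ-S and 1.24 TPM in DN, with Itgax and Itgb2 at 0 throughout.

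**Figure D3:**
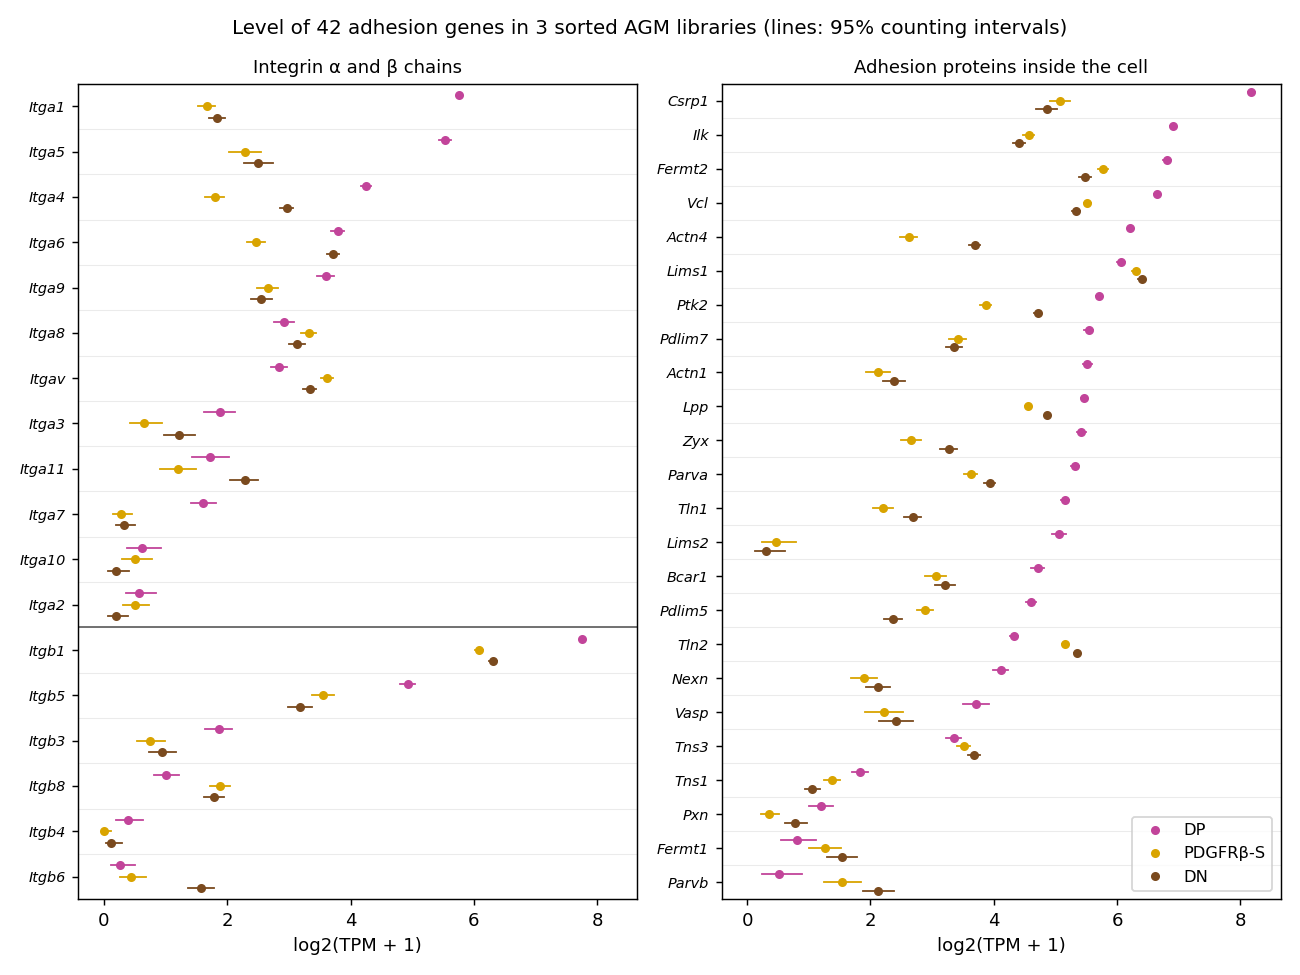
Level of each of the 42 genes as log2(TPM + 1) in the DP, PDGFRβ-S and DN libraries, with lines for the 95% counting interval; integrin chains are on the left (α above the line, β below) and adhesion proteins of the cytoplasm on the right. The DP point lies right of both others for 32 genes, with exceptions such as Itgav, Itga8, Tln2, Lims1 and Parvb.

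The proteins that bind the integrin tail split into genes that were higher in DP and relatives that were not. Tln1, talin 1 (chr4:43531519-43562691, minus strand), had 34.7 TPM in DP, 3.62 TPM in PDGFRβ-S and 5.43 TPM in DN, 6.38-fold higher in DP than in DN (5.64 to 7.24). Tln2, talin 2, had 19.1 TPM in DP, 34.5 TPM in PDGFRβ-S and 39.6 TPM in DN, 0.483-fold in DP relative to DN (0.457 to 0.509). The ratio of Tln1 to Tln2 was therefore 1.81 in DP, against 0.105 in PDGFRβ-S and 0.137 in DN, and per union of exons it was 1.54 in DP, against 0.0890 in PDGFRβ-S and 0.116 in DN. Talin 1 transcripts exceeded those of talin 2 only in the DP library. Tln2 kept its direction in every setting, but its difference, at −1.01 on the log2 scale, fell short of 2-fold with a pseudocount of 5 TPM and with the correction for length and GC content.

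Fermt2, kindlin-2, was among the most abundant members, at 111 TPM in DP, 53.6 TPM in PDGFRβ-S and 43.6 TPM in DN. It was 2.55-fold higher in DP than in DN (2.36 to 2.76) and 2.08-fold higher than in PDGFRβ-S (1.92 to 2.24), and the last difference was under 2-fold when libraries were rescaled. Fermt1, the kindlin of epithelia, had 0.758 TPM in DP, 1.4 TPM in PDGFRβ-S and 1.90 TPM in DN. Vcl, vinculin, had 99.0 TPM in DP, 44.8 TPM in PDGFRβ-S and 39.2 TPM in DN. It was 2.52-fold higher in DP than in DN (2.39 to 2.66), and its 2.21-fold difference from PDGFRβ-S also went under 2-fold with rescaling. Of the exon bases of Vcl, 25.5% overlap Ap3m1 on the other strand, which had 75.4 TPM in DP, 44.8 TPM in PDGFRβ-S and 52.6 TPM in DN.

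Vcl and Fermt2 were also 2 of the 3 members with a CArG box, the binding sequence of serum response factor (SRF) that regulates many smooth muscle genes, in the 250 bases before a RefSeq start site. RefSeq promoters (GRCm38.p6) were found for 32 of the 42 genes, 41 promoters in all. The motif was searched without mismatch, which on its palindromic letters covers both strands, and 1.47% of all 32851 promoters hold it. The third gene was Itgb6, which stayed under 5 TPM and was not apart between DP and PDGFRβ-S beyond counting error (0.556-fold, 0.192 to 1.45). The sequences below show where the motif, in capitals, lies in the strand of each gene, from its 227th base before the start site in Vcl and its 204th in Fermt2. The Fermt2 run ends where the annotated first exon begins. The Itgb6 match is not shown, because it did not lie wholly before the annotated exons of that gene.
Vcl, chr14:20929148-20929397, plus strand: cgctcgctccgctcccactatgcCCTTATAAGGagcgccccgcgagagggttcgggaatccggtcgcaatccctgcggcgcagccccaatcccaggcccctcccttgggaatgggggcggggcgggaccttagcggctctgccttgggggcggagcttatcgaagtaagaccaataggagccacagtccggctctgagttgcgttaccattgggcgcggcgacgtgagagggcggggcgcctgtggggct
Fermt2, chr14:45530119-45530315, minus strand: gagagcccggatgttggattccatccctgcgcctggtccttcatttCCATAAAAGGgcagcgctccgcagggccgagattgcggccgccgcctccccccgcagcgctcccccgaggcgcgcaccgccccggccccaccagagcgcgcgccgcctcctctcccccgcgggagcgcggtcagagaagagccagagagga
The motif of the TEAD factors, CATTCC, was searched on either strand (GGAATG on the other). It was found in 5 of the 41 member promoters (Itga10, Itgb1, Vcl, Actn4, Lpp), close to the 12.6% of all promoters. A match is a stretch of letters and does not show that a factor was bound.

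Among the ILK, PINCH and parvin genes, Lims2, PINCH-2, had 32.3 TPM in DP, 0.385 TPM in PDGFRβ-S and 0.241 TPM in DN, from 633, 9 and 6 reads. It was 134-fold higher in DP than in DN (61.4 to 367) and 83.8-fold higher than in PDGFRβ-S (43.9 to 184). Its relative Lims1, PINCH-1, had 65.9 TPM in DP, 77.9 TPM in PDGFRβ-S and 83.4 TPM in DN, and no pair of libraries was 2-fold apart. Lims2 thus made up 32.9% of the PINCH transcripts in DP, against 0.492% in PDGFRβ-S and 0.288% in DN.

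Parva, α-parvin, had 39.0 TPM in DP, 11.3 TPM in PDGFRβ-S and 14.3 TPM in DN, 2.73-fold higher in DP than in DN (2.52 to 2.96). Parvb, β-parvin, was lowest in DP, at 0.433 TPM in DP, 1.91 TPM in PDGFRβ-S and 3.36 TPM in DN, from 8, 42 and 79 reads. The ratio of Parva to Parvb was 89.9 in DP, against 5.94 in PDGFRβ-S and 4.25 in DN. Ilk (chr7:105736592-105742925, plus strand), the kinase-like scaffold that joins PINCH and parvin, had 119 TPM in DP, 22.7 TPM in PDGFRβ-S and 20.3 TPM in DN, 5.86-fold higher in DP than in DN (5.43 to 6.34). Of its exon bases, 76.7% overlap Taf10 on the other strand, and Taf10 had 181 TPM in DP, 43.7 TPM in PDGFRβ-S and 43.9 TPM in DN. Without strand, the reads of Ilk and Taf10 cannot be told apart in the shared part. Whether the deposited values count such reads for a gene or leave them out is not known, here or for the other overlaps given. Without Ilk and Vcl, 19 of 27 members were higher in DP than in DN and 20 of 27 higher than in PDGFRβ-S.

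**Figure D4:**
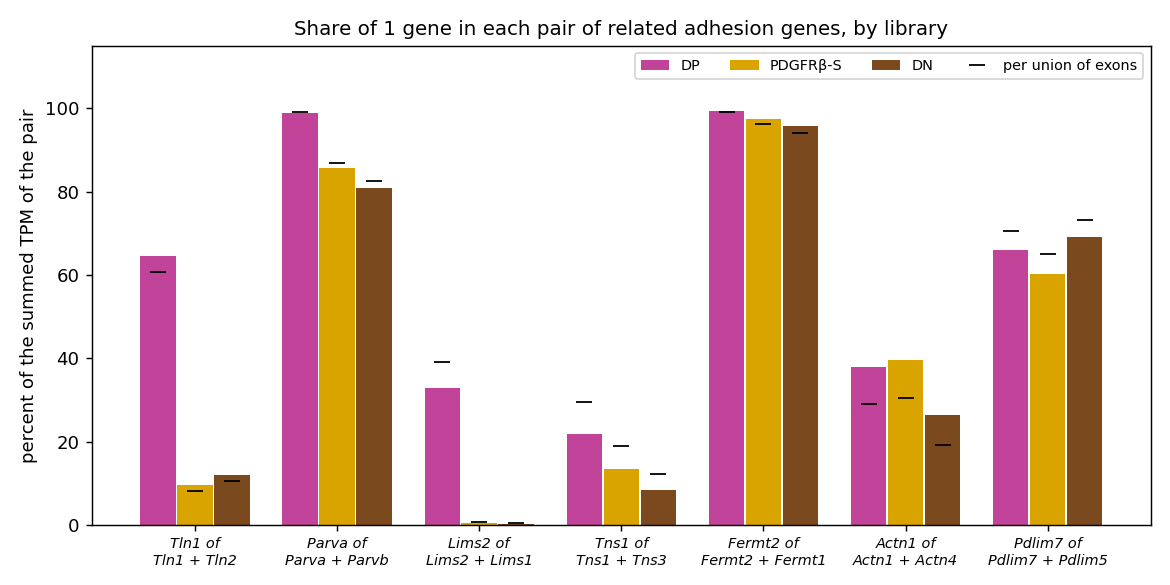
Bars of the share of the first gene in the summed TPM of each of 7 pairs of related adhesion genes, in percent, for the DP, PDGFRβ-S and DN libraries; black marks give the share per union of exons. Tln1 takes 64.4% of the talin sum in DP against 9.49% in PDGFRβ-S and 12.1% in DN, and Lims2 takes 32.9% of the PINCH sum in DP against less than 1% in the others.

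Among the signaling proteins, Ptk2, which encodes FAK, separated all 3 libraries, with 51.1 TPM in DP, 13.6 TPM in PDGFRβ-S and 25.2 TPM in DN. It was 3.75-fold higher in DP than in PDGFRβ-S (3.49 to 4.04), while its 2.03-fold difference from DN (1.92 to 2.15) was just under the limit on the scale with the pseudocount (log2 0.99). Bcar1, p130Cas, had 25.2 TPM in DP, 7.32 TPM in PDGFRβ-S and 8.26 TPM in DN, 3.05-fold higher in DP than in DN (2.63 to 3.54). It went under 2-fold with the correction for length and GC content. Pxn, paxillin, was listed at only 1.29 TPM in DP, 0.277 TPM in PDGFRβ-S and 0.722 TPM in DN, from 70, 18 and 50 reads. Of the tensins, which link the β tail to actin, Tns3 had 9.20 TPM in DP, 10.4 TPM in PDGFRβ-S and 11.9 TPM in DN, with no pair 2-fold apart. Tns1, under the level that was counted, had 2.55 TPM in DP, 1.61 TPM in PDGFRβ-S and 1.08 TPM in DN, 2.36-fold higher in DP than in DN (1.91 to 2.93). Accordingly the ratio of Tns1 to Tns3 was 0.278 in DP, against 0.155 in PDGFRβ-S and 0.0913 in DN.

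The genes of the actin end of the adhesion were higher in DP with few exceptions. Csrp1, a LIM protein of smooth muscle, was the most abundant member at 289 TPM in DP, against 32.6 TPM in PDGFRβ-S and 28.0 TPM in DN, 10.3-fold higher in DP than in DN (9.07 to 11.7). Actn1, α-actinin-1, had 44.8 TPM in DP, 3.36 TPM in PDGFRβ-S and 4.24 TPM in DN, 10.6-fold higher in DP than in DN (9.0 to 12.5). Actn4, α-actinin-4, had 73.3 TPM in DP, 5.14 TPM in PDGFRβ-S and 11.9 TPM in DN. For both α-actinins DP was at least 6.15-fold over either other library, but only Actn4 was also apart between PDGFRβ-S and DN, at 0.432-fold (0.378 to 0.492). The ratio of Actn1 to Actn4 was accordingly 0.611 in DP, against 0.653 in PDGFRβ-S and 0.356 in DN.

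Zyx, zyxin, which gathers at sites under tension, had 41.9 TPM in DP, 5.29 TPM in PDGFRβ-S and 8.62 TPM in DN, 4.86-fold higher in DP than in DN (4.33 to 5.45). Vasp, which promotes actin filament growth, had 12.2 TPM in DP, 3.67 TPM in PDGFRβ-S and 4.35 TPM in DN, 2.80-fold higher in DP than in DN (2.1 to 3.76). Nexn, an actin-binding protein of muscle, had 16.3 TPM in DP, 2.72 TPM in PDGFRβ-S and 3.35 TPM in DN. In each of these genes the PDGFRβ-S and DN libraries lay far closer to each other than to DP. Pdlim7 had 45.4 TPM in DP, 9.65 TPM in PDGFRβ-S and 9.23 TPM in DN, and Pdlim5 had 23.3 TPM in DP, 6.37 TPM in PDGFRβ-S and 4.14 TPM in DN. Both encode PDZ and LIM proteins that bind α-actinin or actin bundles, and DP was 4.92-fold (4.40 to 5.52) and 5.64-fold (4.93 to 6.49) over DN. Lpp, a relative of zyxin of smooth muscle, was less apart, with 43.0 TPM in DP, 22.6 TPM in PDGFRβ-S and 28.2 TPM in DN. Together with Itgav, Itga8, Lims1 and Tns3 it made up the 5 genes above 5 TPM that passed 2-fold in no comparison.

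All members counted as apart kept their direction under every setting tried. Of the 21 that were higher in DP than in DN, 18 stayed past 2-fold under all scalings of the libraries, the exceptions being Itga9, Bcar1 and Vasp. Of the 22 that were higher in DP than in PDGFRβ-S, 16 did so. None of the 3 with lower values in PDGFRβ-S than in DN did, nor did Tln2.

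Itga4, Itga6 and Actn4 were lower in PDGFRβ-S beside the skeletal muscle, sympathetic and epithelial marker values of DN given above, and the part of those cells in the result was not tested. Likewise the higher values in DP moved with the 5 smooth muscle markers, with lower erythroid and mitochondrial transcripts and with a higher share of Gm42418. This 1 gene took 9.44% of all TPM in DP, against 0.251% in PDGFRβ-S and 0.631% in DN. The epithelial markers Krt8, Krt18 and Pax8 and the endothelial markers Esam and Tek were also highest in DP. Epcam, Cldn6 and Emcn were not, and Kdr was nearly level between DP and PDGFRβ-S. The part of any of these was not tested.

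In a list of 56 other genes of adhesion sites the shares higher in DP were smaller than among the members. Of those countable, 17 of 45 were higher and 4 lower in DP than in DN, against 16.9% and 19.1% of all genes. Set against PDGFRβ-S, 20 of 44 were higher and 1 lower in DP, against 28.3% and 12.5%. For PDGFRβ-S against DN it was 0 of 37 higher and 6 lower, against 2.23% and 10.9%. The median log2 ratio of the countable genes was 0.62 for DP over DN, 0.90 for DP over PDGFRβ-S and −0.28 for PDGFRβ-S over DN. Hspb1, the small heat shock protein HSP27, which binds actin, had 359.6 TPM in DP, 12.7 TPM in PDGFRβ-S and 11.1 TPM in DN. Cav1, caveolin-1, had 40.4 TPM in DP, 1.39 TPM in PDGFRβ-S and 4.84 TPM in DN. Enah, a relative of VASP, was lowest in DP, unlike Vasp, with 5.40 TPM in DP, 15.9 TPM in PDGFRβ-S and 19 TPM in DN. Evl, of the same family, had 10.5 TPM in DP, 20.2 TPM in PDGFRβ-S and 21.9 TPM in DN. Cd9 and Cd151, tetraspanins that associate with laminin-binding integrins, were lowest in PDGFRβ-S: Cd151 had 37.0 TPM in DP, 5.44 TPM in PDGFRβ-S and 35.2 TPM in DN, an order like that of Itga6. Cd9 had 6.66 TPM in DP, 5.58 TPM in PDGFRβ-S and 20.0 TPM in DN. Rsu1, which binds PINCH-1, and Fblim1, migfilin, had the 2 highest ratios of PDGFRβ-S over DN in the list, at log2 0.46 and 0.54.

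Genes for integrin ligands were higher in DP as well. Of 38 listed, 36 were in the table, and 19 of 26 were higher in DP than in DN, against 16.9% of all genes. Set against PDGFRβ-S, 19 of 25 were higher in DP, against 28.3%. None was lower in DP in either case, against 19.1% and 12.5% of all genes. The median log2 ratios of the countable ligand genes were 1.45 for DP over DN and 1.68 for DP over PDGFRβ-S. Between PDGFRβ-S and DN, Fbln5 and Col6a3 were higher and Npnt lower in PDGFRβ-S, of 19 countable genes, against 2.23% and 10.9% of all genes. Fbln5, an RGD protein of elastic fibers, was graded, with 91.3 TPM in DP, 9.26 TPM in PDGFRβ-S and 0.592 TPM in DN. Mfge8, a ligand of αv integrins, had 95.8 TPM in DP, 3.88 TPM in PDGFRβ-S and 2.97 TPM in DN. Col1a1, a collagen chain, had 245.5 TPM in DP, 20.7 TPM in PDGFRβ-S and 12.3 TPM in DN. Npnt, nephronectin, the ligand of α8β1, was low in all, at 2.84 TPM in DP, 1.31 TPM in PDGFRβ-S and 6.28 TPM in DN. Cd47, a membrane partner of integrins, was nearly level, with 7.75 TPM in DP, 8.01 TPM in PDGFRβ-S and 10.99 TPM in DN.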

How the data were processed

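The data are bulk RNA-seq libraries of E11 AGM cells, 1 for each of 3 populations which the labels call vSMCs, sub-vSMCs and stroma and the study DP, PDGFRβ-S and DN. Cells were lysed on sorting, polyadenylated RNA was copied by a Smart-seq2-type protocol, and cDNA was sequenced as short single reads without strand information or molecular identifiers. Alignment was to mm10 with TopHat2 2.0.10, as the submitters' notes on processing give it. The authors deposited TPM for 47069 genes, adding up to 1000000 in each library. The study describes TPM from Cufflinks for RefSeq transcripts and, separately, raw reads counted over a GENCODE annotation. Which route made the table is not stated, but its values had the form of whole reads over GENCODE exon lengths, as given below.

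TPM multiplied by gene length gave whole multiples of 1 constant per library. Among 9422 genes for which every library held 50 to 5000 reads, 65.8% came out whole within 0.0005 of a read with the summed length of distinct exons of GENCODE M21, against 8.15% with the union of exons. With the length searched between 0.5 and 2 times, 99.9% of 943 genes did so, against 3.92% with constants shifted by 3%. For 24 members the length was that of M21, and for 18 the nearest length giving whole reads was taken. Of these, 10 differed by over 10%, so their read numbers may be a multiple or a fraction of those given. Their intervals may then be too wide or too narrow. Intervals of levels are exact Poisson and those of folds exact binomial intervals at 95%. They cover counting error only.

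Ratios were log2((TPM + 1)/(TPM + 1)), and medians used genes at a mean of 1 TPM or more. The calculations were tested on simulated data. Printed coordinates of promoters and motif searches use RefSeq sequences on GRCm38.p6. Python 3.11, numpy 2.4.6, scipy 1.17.1 and pandas 2.3.3 were used. The members, the lists and the rules were chosen with earlier results of these data known. Values in all libraries were to be given for members past 2-fold in a pair with 5 TPM or more, for the 3 highest α and β chains of each library and for pairs of related genes. From the lists, the genes named are among the 2 highest or lowest ratios of a pair. Alternatives were other pseudocounts, scalings, minimum levels and limits. Another sheet with 4 columns for 2 genes could not be assigned to the samples and was not used.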

Additional observations from a re-analysis of the deposited data

How the results depend on the processing

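With a 4-fold limit, 11 of 29 members were higher in DP than in DN, against 4.49% of all genes. By that limit 12 of 29 were higher in DP than in PDGFRβ-S, against 8.80%. With it 0 were lower in DP or PDGFRβ-S when set against DN, against 5.63% and 2.71% of all genes. The count lower in DP than in DN, 1 as reported, was 0 with a pseudocount of 5 TPM and with centring on genes of like length and GC content, 2 without the 20 highest genes, and 3 with a minimum of 1 TPM or none. For PDGFRβ-S against DN the count of lower members, 3 as reported, was 0 with a pseudocount of 5 TPM, quantile normalization or centring, and 5 with a minimum of 1 TPM or none. The shares of all genes lower were 4.53%, 5.39%, 6.45%, 15.5% and 5.83%, in that order. The count lower in DP than in PDGFRβ-S, 0 as reported, was 2 with rescaling to protein-coding genes, median-of-ratios scaling, quantile normalization or without the 20 highest genes, and 1 with centring, a minimum of 1 TPM or none. Here 21.3%, 17.9%, 18.9%, 18.9%, 12.3%, 16.7% and 5.95% of all genes were lower, in that order. The median log2 ratio of members for DP over DN was 1.08 with a pseudocount of 5 TPM and 1.04 with rescaling to protein-coding genes. For DP over PDGFRβ-S it was 1.74 with a pseudocount of 0.1 TPM, 1.09 with 5 TPM, 1.09 with rescaling to protein-coding genes, 0.99 with centring and 1.70 for members at a mean of 5 TPM. For PDGFRβ-S over DN the median turned positive, to 0.18 with quantile normalization and 0.20 with centring. The cause was not tested.

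Rescaling to protein-coding genes moved the median log2 ratio of all genes to −0.39 for DP over DN and −0.15 for DP over PDGFRβ-S, with 11.7% of genes higher and 27.0% lower in DP than in DN, and 19.1% higher and 21.3% lower in DP than in PDGFRβ-S. Without the 20 highest genes these were −0.31 and −0.02, with 13.7% higher and 26.3% lower, and 22.8% higher and 18.9% lower. Quantile normalization gave −0.03 and −0.04, with 17.4% higher and 17.4% lower, and 19.6% higher and 18.9% lower. The median of ratios gave −0.18 and −0.04. The median of members stayed above that of all genes in each of these. Depth limits the lowest members, such as Itgb4 with 0 to 11 reads and Itga10 with 5 to 15 reads, and no replicate exists with which any result could be checked. No paired analysis was possible because each group has 1 library.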

Other observations

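The deposited TPM divide reads by a length in which each distinct annotated exon counts in full, so genes with many overlapping exon forms are listed lower than their reads per base of the gene would give. For Ilk the length found was 7898 bases against a union of 2744 bases, for Actn4 13496 against 6127 and for Nexn 7567 against 3826, while Csrp1 had 1956 for both. The ratio of a gene between libraries does not change with this length, but the order of genes within a library can.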
